A study of Mus musculus with 15 samples.

Results

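Expression in mouse fibroblasts made to express C/EBPε was set against that in fibroblasts with the empty vector. The comparison rests on 6 of the 15 arrays of the series, taken by their titles: 3 arrays of C/EBPε cells, called CEBPE below, and 3 arrays of empty-vector cells, called vector. The cells were NIH 3T3, an immortal mouse embryo fibroblast line, stably transfected with pMTCB6+, a plasmid whose insert is switched on by zinc. CEBPE cells carried the human C/EBPε cDNA in this plasmid and vector cells the plasmid with no insert. Every culture, vector included, had been selected with G418 and had received zinc sulphate for 16 h before total RNA was taken, so no array shows cells without zinc. The remaining 3 groups, with human C/EBPα, C/EBPβ or C/EBPδ in the same plasmid (CEBPA, CEBPB and CEBPD, 3 arrays each), entered the fit and are set beside CEBPE at the end. Per the labels the transfectants were polyclonal and the arrays came from triplicate clones. Whether the 3 arrays of a group stem from separate transfections is not given in the sources used here. Differences between transfected pools and effects of C/EBPε cannot be told apart in this design, and the p-values measure only the spread between these cultures.

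C/EBPε belongs to the CCAAT/enhancer binding proteins, transcription factors that pair through a leucine zipper and bind DNA as dimers, also with relatives such as Cebpg and Ddit3. In the body it is made chiefly in maturing granulocytes, where it is needed for the granule proteins of neutrophils, and people or mice that lack it form neutrophils without specific granules. Its relatives C/EBPα, C/EBPβ and C/EBPδ are known from fibroblasts that turn into fat cells, from liver and from inflammation.

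The human cDNA cannot be followed here, because no probe set on this mouse array is named Cebpe. Markers went with the fibroblast label in part: 10 of 13 fibroblast markers passed the signal filter, as did 56.0538% of all probe sets. Vim, Lum and Fap did not pass, and Fap lay at the floor on all 3 CEBPE arrays. Among markers of other cell types, 3 of 6 for skeletal muscle passed (Myod1, Myog and Tnnt3). For epithelial cells it was 1 of 5 (Cdh1), for endothelial cells 1 of 5 (Kdr) and for hepatocytes 0 of 4. The summed signal of all 13 ran from 144061 to 190180 units on the CEBPE arrays, against 119963 to 155524 units on the vector arrays. Dcn, itself among the largest rises, averaged 30104 units of this sum in CEBPE cells and 3052 units in vector cells. Of the 10, only Dcn and Col3a1 were called higher and 0 lower. Granulocyte markers did not appear as a set. Of 24 on the array 7 passed the filter. The sum of all 24 ran from 12957.8 to 17758 units on the CEBPE arrays and from 13529 to 14228.4 units on the vector arrays. Prtn3 and Mmp8 lay at the floor on all 6 arrays, and Mpo, Elane and Ltf did not pass. Of 6 fat cell markers 2 passed, Lpl and Pparg. The sum of all 6 ran from 1585.86 to 2218.97 units on the CEBPE arrays and from 737.691 to 1423.84 units on the vector arrays. Lpl was the only 1 called, at 1025 units in CEBPE cells and 254 units in vector cells. Cd36 and Pparg lay at the floor on all 6 arrays, and the filter also counts arrays of the other groups. A measure of RNA quality moved with the group: the 3′ to 5′ signal ratio of the Gapdh control was 0.9665 to 0.9865 on the CEBPE arrays, against 0.8974 to 0.9366 on the vector arrays. That of the actin control overlapped (1.1069 to 1.438 against 1.1118 to 1.4113). Its part in the results was not tested. Of 5 macrophage markers 3 passed. The sum of all 5 ran from 14280.6 to 15513.3 units on the CEBPE arrays and from 11708.9 to 13273.6 units on the vector arrays. Cd14 was called higher and Cd68 lower. Cultures were lysed whole, so fewer cells of a kind and less RNA per cell cannot be told apart.

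As deposited, the array medians lay between 992.25 and 1149.7 units over the whole series. A signal is the deposited intensity of a probe set after each array was brought to a common median. Signals under 189.652 units were raised to that floor for the test, and log2 differences are CEBPE minus vector. Of 6963 probe sets tested, 1134 (16.3%) passed an adjusted p of 0.05 in limma's moderated test, 653 (9.38%) higher and 481 (6.91%) lower in CEBPE cells, and 2064 had an unadjusted p under 0.05. The excess of rises depended on the scaling: 630 were higher and 604 lower with median ratio scaling, 697 and 642 with quantile normalization, and 733 and 619 with no scaling. Past 2-fold the order turned: 137 probe sets rose by over 2-fold (1.97%) and 185 fell by over 2-fold (2.66%). With each gene read by its brightest tested probe set, 894 of 5338 genes passed (16.7%), 528 higher (9.89%) and 366 lower (6.86%), and the CEBPE arrays did not overlap the vector arrays for 30.4% of the genes. The median gene read 0.08 on the log2 scale. The count of probe sets was 750 with vector array 3 left out. It was 693 (386 higher and 307 lower) with array number 1 of every group left out, a setting chosen because those arrays leaned the same way.

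The 56 lists of genes with a shared role were chosen with earlier results of these data known, so their shares are descriptive. Heat shock, immediate early, stress response and amino acid genes stood low as lists. The C/EBP family, Krüppel-like factor, growth arrest and metallothionein lists also had low medians (-0.68, -0.57, -0.48 and -0.45). Cholesterol synthesis, fatty acid oxidation and interleukin-6 type signalling genes stood high. Lists of ribosomal proteins, DNA replication and the proteasome held few calls or none. Each list is given by its calls, its median log2 difference and its calls without the arrays numbered 1. The calls of the main fit are to be read against the 9.89% of all genes called higher and the 6.86% called lower. The medians are to be read against the all-gene median of 0.08. These shares do not apply to the calls without the arrays numbered 1. That fit had fewer arrays per group and called fewer probe sets in all, 386 higher and 307 lower, against 653 and 481.

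**Figure D1:**
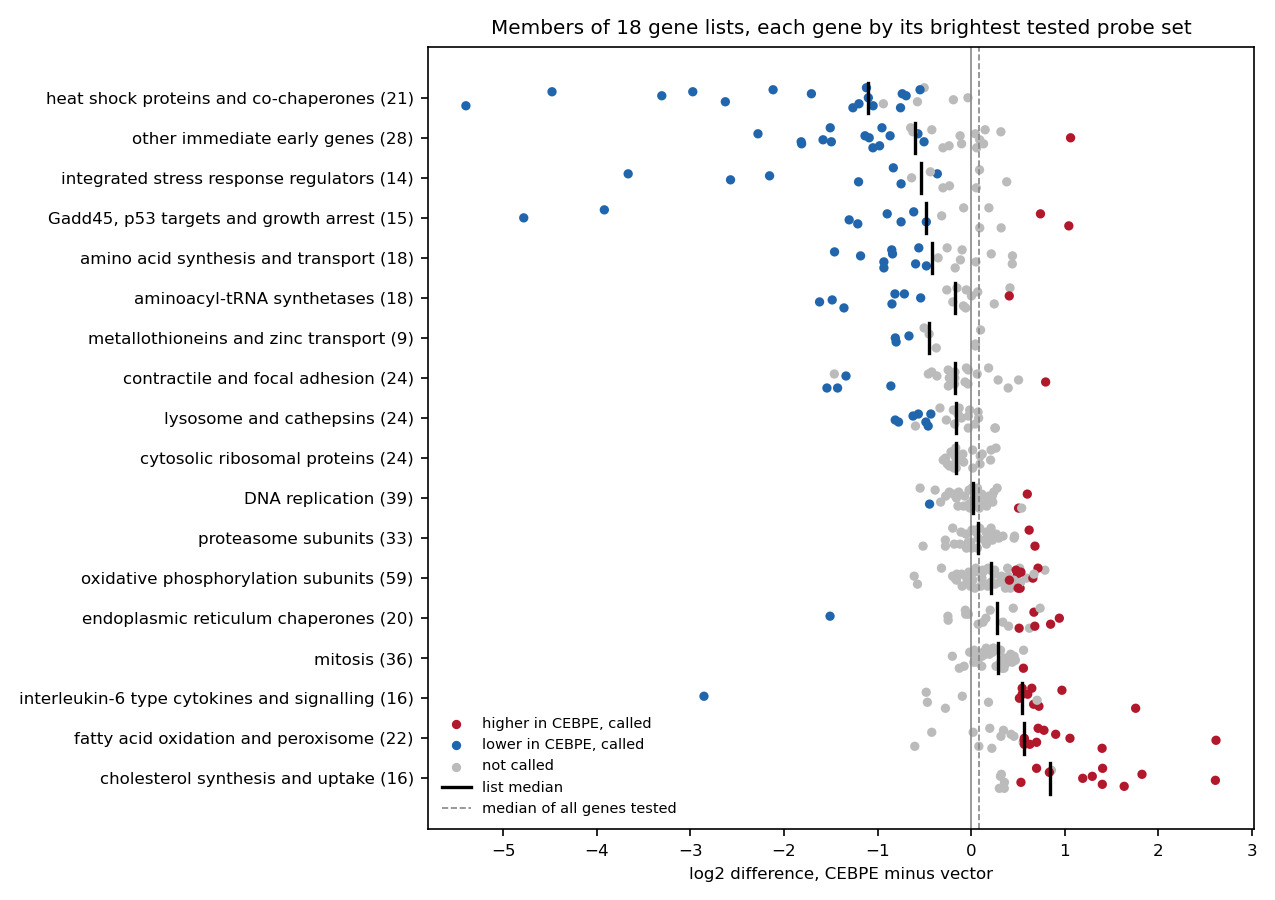
Log2 difference, CEBPE minus vector (horizontal axis), of every tested gene of 18 lists, 1 point per gene, with the number of tested genes in parentheses. Bars mark list medians and the dashed line the median of all genes tested. The heat shock list has its median at -1.10 with 16 genes called lower, and the cholesterol list at 0.85 with 10 called higher.

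Heat shock proteins, chaperones that refold damaged proteins and are made in bulk under metal or heat stress, were the list that stood lowest. Of 21 tested, 16 fell, 0 rose and all 21 had a negative difference (median -1.10), and the count was 16 without the arrays numbered 1 as well. Hspa1a, an inducible Hsp70, read 316, 713 and 1221 units on the CEBPE arrays, against 25584, 29685 and 27158 units on the vector arrays. Its near-copy Hspa1b read 3095, 3667 and 4039 units on the CEBPE arrays, against 74069.9, 86386 and 79416 units on the vector arrays. The highest CEBPE array of each lay far under the lowest vector array, and the falls came to 42.2-fold (log2 -5.40, SE 0.32, adjusted p = 5.88e-09) and 22.3-fold (log2 -4.48, SE 0.14, adjusted p = 4.02e-12). Since the 2 transcripts are nearly identical, their probe sets may share target RNA. Dnajb1, the Hsp40 partner of Hsp70, read 1880.1, 3194 and 2924 units on the CEBPE arrays, against 24150.3, 29039 and 24210.1 units on the vector arrays, a fall of 9.89-fold (log2 -3.31, SE 0.20, adjusted p = 7.26e-09). Hsph1, the Hsp110 that recharges Hsp70, fell 4.34-fold but kept a high signal (18544 ± 1201 units in CEBPE cells and 80425 ± 5070.4 units in vector cells). Cryab, the small heat shock protein αB-crystallin, fell 6.18-fold, and Zfand2a, an arsenite-induced partner of the proteasome, 7.86-fold, with a second, dimmer Zfand2a probe set lower too. Dnajb2, another DnaJ protein that was not on the list, read 2027, 3247 and 2309.8 units on the CEBPE arrays, against 10929, 13922 and 10754 units on the vector arrays, without overlap, and fell 4.76-fold. Of the cytosolic chaperonin, which folds actin and tubulin, the calls were few: of 7 TCP-1 ring subunits tested 0 fell and 1, Cct2, was called higher, with Cct4 and Cct5 at log2 -0.15 and -0.05, not called (median -0.01; 0 higher and 0 lower without the arrays numbered 1). The Cct2 call was lost without CEBPE array 1 or 2 or vector array 1, 2 or 3 (adjusted p up to 0.115). Cct2 was also lost with median ratio scaling, with no scaling, with no trend, with the fit limited to the groups compared, with quantile normalization or without the arrays numbered 1 (adjusted p over the alternatives from 0.0179 to 0.188).

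**Figure D2:**
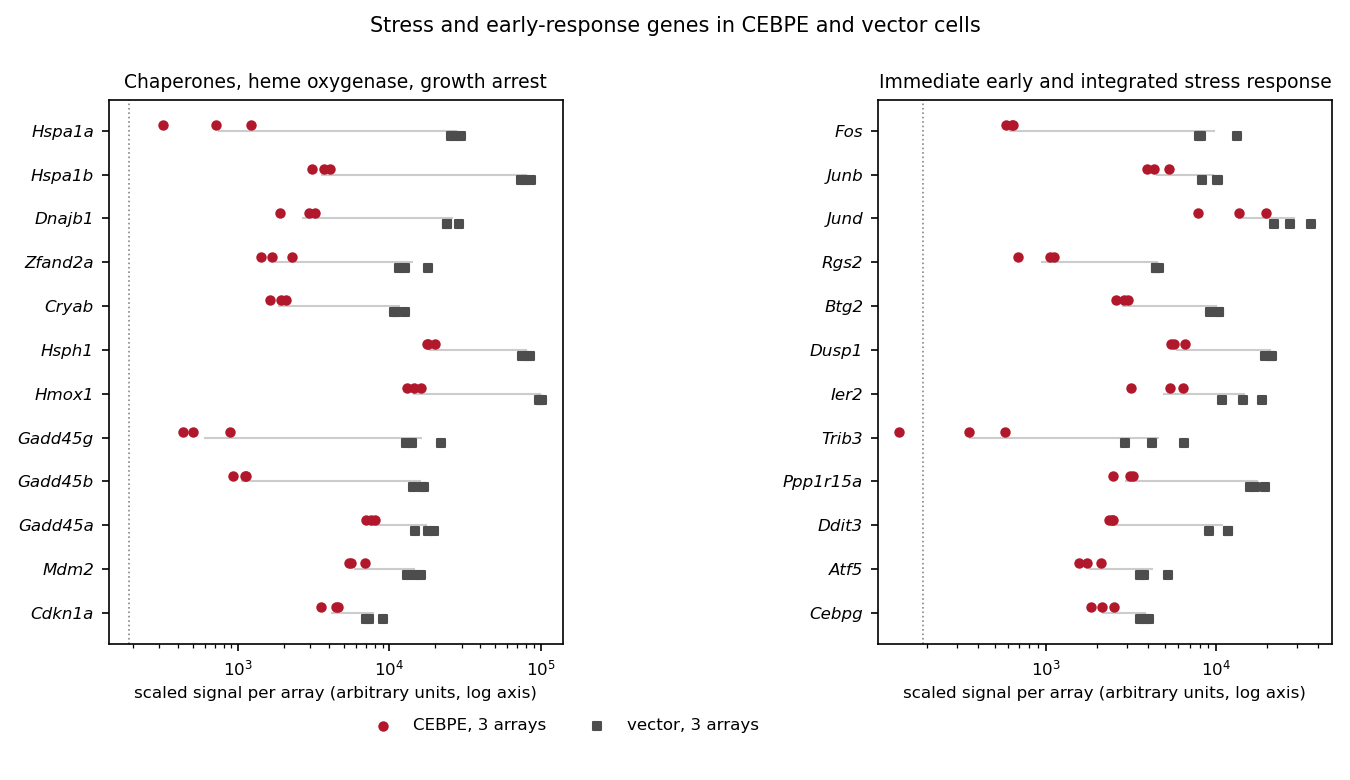
Scaled signal of each array on a log axis (arbitrary units) for 24 stress and early-response genes, CEBPE arrays as red circles and vector arrays as dark squares, with a line between the group means and the floor dotted. In every gene shown the 3 CEBPE arrays lie left of the 3 vector arrays.

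Promoters were searched for 6 motifs. Of the 10 genes that fell most 9 had a promoter in the RefSeq table, all but Vwf, and 6 of these held a searched motif. The first 3 of the 6 by size of fall are shown: Hspa1a and Hspa1b with GAANNTTC, the core of the heat shock element, and Gadd45g with TGATGNAA, the composite site of C/EBP and ATF factors, and TGACNNNGC, the core of the antioxidant response element. Of the others, Trib3 held TGATGNAA, Dnajb1 TGACNNNGC in 1 of its 2 promoters and Zfand2a TGACGTCA, the core of the cAMP response element, while Fos, Gadd45b and Fam117a held none of the 6. The windows run from 250 bases before to 50 after the RefSeq start of the gene (GRCm38.p6), on the strand of the gene, and capitals mark the matches, searched on both strands and each motif on its own, so that matches sharing bases would count for each. The windows lie at chr17:34972107-34972406 (Hspa1a, minus strand), chr17:34959189-34959488 (Hspa1b, minus strand) and chr13:51846425-51846724 (Gadd45g, plus strand).
Hspa1a: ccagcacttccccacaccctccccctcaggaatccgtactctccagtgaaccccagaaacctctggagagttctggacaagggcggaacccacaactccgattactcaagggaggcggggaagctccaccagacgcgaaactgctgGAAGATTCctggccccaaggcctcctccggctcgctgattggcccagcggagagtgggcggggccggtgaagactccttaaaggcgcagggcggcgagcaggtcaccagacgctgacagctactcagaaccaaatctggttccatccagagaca
Hspa1b: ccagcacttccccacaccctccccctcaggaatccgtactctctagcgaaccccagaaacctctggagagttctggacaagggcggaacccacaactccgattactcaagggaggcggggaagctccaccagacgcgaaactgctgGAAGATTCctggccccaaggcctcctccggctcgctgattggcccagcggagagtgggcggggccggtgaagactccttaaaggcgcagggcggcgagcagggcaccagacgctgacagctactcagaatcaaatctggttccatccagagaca
Gadd45g: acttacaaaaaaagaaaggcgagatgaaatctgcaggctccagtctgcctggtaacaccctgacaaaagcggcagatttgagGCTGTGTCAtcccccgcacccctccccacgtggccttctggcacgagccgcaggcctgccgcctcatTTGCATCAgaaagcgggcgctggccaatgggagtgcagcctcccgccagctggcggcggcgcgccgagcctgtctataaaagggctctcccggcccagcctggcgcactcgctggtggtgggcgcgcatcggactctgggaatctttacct
Of all 32851 promoters of this length in RefSeq, 7.86% hold GAANNTTC, 3.97% TGATGNAA and 12.4% TGACNNNGC. Among heat shock genes of the list with a promoter, 10 of the 17 tested and 9 of the 13 called lower held GAANNTTC, against 6.98% of all 4343 tested genes with a promoter, 7.13% of those called higher and 12.2% of those called lower. TGATGNAA stood in 4.39% of genes called lower, 2.53% of those called higher and 2.62% of all tested with a promoter, and TGACNNNGC in 20.9%, 15.6% and 17.4%. The share of all promoters holding at least 1 of the 6 motifs was not counted. The 6 of 9 genes with a motif therefore have no such share beside them. A match describes these letters and does not show binding.

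Immediate early genes, which growth factors and stress switch on within minutes, gave many more falls than rises, AP-1 subunits among them. Fos, a partner of Jun in the AP-1 factor, read 629.6, 645 and 581 units on the CEBPE arrays, against 8119, 13321 and 7913 units on the vector arrays, a fall of 15.4-fold (log2 -3.94, SE 0.21, adjusted p = 2.68e-09), with its CEBPE arrays close together and far below vector. Junb, a Jun relative, read 5257, 3951 and 4319.9 units on the CEBPE arrays, against 8287, 10309 and 10192 units on the vector arrays, without overlap (log2 -1.09, SE 0.18, adjusted p = 3.96e-04). Its other, dimmer probe set fell by far more, at log2 -2.42 (adjusted p = 8.38e-06), so the size of the Junb fall is uncertain. Of 7 AP-1 genes tested 3 fell (Fos, Junb and Jund) and 0 rose (median -0.33; 0 higher and 3 lower without the arrays numbered 1). Jund read 7851, 19631 and 13661 units on the CEBPE arrays, against 21939, 36319 and 27343 units on the vector arrays. The Jund call was lost without CEBPE array 1 or 3 or vector array 2 or 3 (adjusted p up to 0.142). Jund was also lost with no filter or with no trend (adjusted p over the alternatives from 1.06e-05 to 0.138).

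Of 28 other immediate early genes 14 fell and 1 rose (median -0.60), with 11 lower and 1 higher without the arrays numbered 1. Rgs2, which damps G protein signalling, read 1055, 687 and 1114 units on the CEBPE arrays, against 4618, 4468 and 4466 units on the vector arrays and fell 4.85-fold (log2 -2.28, SE 0.17, adjusted p = 7.48e-08). Dusp1, a phosphatase that shuts off MAP kinases, read 5665, 6579 and 5431 units on the CEBPE arrays, against 19468, 21325 and 21095 units on the vector arrays; its groups lay well apart (log2 -1.81, SE 0.11, adjusted p = 1.20e-08). The antiproliferative Btg2 fell 3.52-fold, the nuclear protein gene Ier2 3.00-fold, Tiparp, an ADP-ribosyltransferase, 2.84-fold, and the Krüppel-like factor Klf4 2.82-fold, all with groups that did not overlap. The 1 rise was Dusp6, the phosphatase that acts on ERK (6410.3 ± 1166 units in CEBPE cells and 3096 ± 759 units in vector cells, log2 1.06, SE 0.18, adjusted p = 7.17e-04).

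Growth arrest genes fell too. All 3 Gadd45 genes, which encode small stress sensors that bind kinases and cell cycle proteins, were lower. Gadd45g read 430.4, 499.9 and 879 units on the CEBPE arrays, against 14024, 21866 and 12809 units on the vector arrays, a fall of 27.5-fold (log2 -4.78, SE 0.27, adjusted p = 4.29e-09). Gadd45b read 1113, 924 and 1125 units on the CEBPE arrays, against 17033, 16484 and 14288 units on the vector arrays, with a narrow spread in both groups (log2 -3.92, SE 0.23, adjusted p = 5.88e-09) and a similar fall of its other probe set. Gadd45a fell 2.32-fold (7513 ± 542 units in CEBPE cells and 17501 ± 2548 units in vector cells). Of the p53 targets, Mdm2, the ubiquitin ligase that removes p53, read 6889.9, 5409 and 5526 units on the CEBPE arrays, against 14682, 16255 and 12982 units on the vector arrays (log2 -1.30, SE 0.15, adjusted p = 1.25e-05). Cdkn1a, the kinase inhibitor p21, read 3523, 4463 and 4551 units on the CEBPE arrays, against 7016, 9037 and 7292 units on the vector arrays (log2 -0.90, SE 0.16, adjusted p = 9.10e-04). The CEBPE and vector arrays did not overlap in Mdm2 or Cdkn1a. Of 15 genes of the list 8 fell and 2 rose (median -0.48; 1 higher and 7 lower without the arrays numbered 1), the rises being Gas1 and Sesn1. Gas1, a growth arrest protein of the cell surface, averaged 8831 ± 2208 units in CEBPE cells and 4239 ± 775 units in vector cells (log2 1.04, SE 0.19, adjusted p = 9.92e-04). Sesn1, a sestrin induced by p53, averaged 2853 ± 464 units in CEBPE cells and 1721 ± 385 units in vector cells (log2 0.74, SE 0.19, adjusted p = 0.0136). The Sesn1 call was lost without CEBPE array 2 or vector array 3 (adjusted p up to 0.0750). Sesn1 was also lost with the fit limited to the groups compared or without the arrays numbered 1 (adjusted p over the alternatives from 0.00193 to 0.0635).

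The integrated stress response, in which phosphorylated eIF2α raises translation of Atf4 and so of genes for amino acid supply, had lower transcripts at several steps. Of 14 regulators 7 fell and 0 rose (median -0.54; 0 higher and 6 lower without the arrays numbered 1). Trib3, a pseudokinase induced by Atf4 and Ddit3, read 136, 579 and 356 units on the CEBPE arrays, against 2929, 6477 and 4202 units on the vector arrays, with 1 CEBPE array under the floor (log2 -3.67, SE 0.35, adjusted p = 1.71e-06). Ppp1r15a, the subunit that brings a phosphatase to eIF2α, read 2479, 3109 and 3233 units on the CEBPE arrays, against 15852, 19479 and 16946 units on the vector arrays (5.94-fold lower, log2 -2.57, SE 0.15, adjusted p = 7.17e-09). The C/EBP relative Ddit3, known as CHOP, read 2353, 2481 and 2436 units on the CEBPE arrays, against 9045, 11744 and 11808 units on the vector arrays, so that every CEBPE array stood far under vector (log2 -2.15, SE 0.17, adjusted p = 2.16e-07). Atf5 fell 2.30-fold. Cebpg, the zipper partner without a transactivation domain, fell 1.78-fold (2162 ± 336 units in CEBPE cells and 3824 ± 232 units in vector cells, log2 -0.83, SE 0.16, adjusted p = 0.00198). The endogenous mouse Cebpb averaged 9899 ± 3290.3 units in CEBPE cells and 14198 ± 4247 units in vector cells (adjusted p = 0.299). Cebpd averaged 5521 ± 1147 units in CEBPE cells and 6691 ± 1337 units in vector cells (adjusted p = 0.352). Neither was called, and the arrays overlapped in both. Of the 4 C/EBP family genes tested, Ddit3 and Cebpg were thus the 2 that fell, and 0 rose (median -0.68; 0 higher and 2 lower without the arrays numbered 1).

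Genes of amino acid supply fell in the same cells. Of 18 genes of amino acid synthesis and transport 9 fell and 0 rose (median -0.42; 5 lower without the arrays numbered 1). Psph, the last enzyme of serine synthesis, read 5393, 4859 and 5120.4 units on the CEBPE arrays, against 14128, 14316 and 13809 units on the vector arrays, with arrays tightly grouped on each side (log2 -1.46, SE 0.11, adjusted p = 7.48e-08). Asns, asparagine synthetase, read 17522, 19289 and 20072 units on the CEBPE arrays, against 37752, 36961 and 33815 units on the vector arrays (log2 -0.93, SE 0.12, adjusted p = 4.15e-05), and its other probe set fell too. The transporter subunits Slc3a2, the heavy chain of CD98, and Slc7a5, its light chain for large neutral amino acids, fell 2.27-fold and 1.80-fold, and Aldh18a1, the first enzyme of proline synthesis, fell 1.91-fold. Of 18 aminoacyl-tRNA synthetases, which load amino acids on tRNA, 7 fell and 1 rose (median -0.17; 5 lower and 0 higher without the arrays numbered 1). Nars, for asparagine, read 2244, 2764 and 2018 units on the CEBPE arrays, against 7466, 6258 and 5877 units on the vector arrays (log2 -1.49, SE 0.18, adjusted p = 2.19e-05). Aars, for alanine, fell 2.57-fold (5154 ± 622 units in CEBPE cells and 13253 ± 1959 units in vector cells), and Gars, for glycine, 1.80-fold (10214 ± 2146 units in CEBPE cells and 18604 ± 5455 units in vector cells). The 1 that rose was Farsb, a subunit for phenylalanine (log2 0.41, adjusted p = 0.0303). The Farsb call was lost without CEBPE array 2 or 3 or vector array 1 or 3 (adjusted p up to 0.145). Farsb was also lost with the fit limited to the groups compared or without the arrays numbered 1 (adjusted p over the alternatives from 0.0111 to 0.223).

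Chaperones of the endoplasmic reticulum gave more rises than falls. Of 20 tested 5 rose and 1 fell (median 0.27; 3 higher and 1 lower without the arrays numbered 1). Ero1a, the oxidase that passes disulphides to newly made proteins, read 13003, 13296 and 13888 units on the CEBPE arrays, against 8258, 7966 and 5150.2 units on the vector arrays, without overlap (log2 0.94, SE 0.15, adjusted p = 3.96e-04). Pdia6, a disulphide isomerase, read 6956, 7430.4 and 8428 units on the CEBPE arrays, against 3754, 4519 and 4399.7 units on the vector arrays (log2 0.85, SE 0.16, adjusted p = 0.00186); of its 2 other probe sets 1 was called higher. The 1 fall was Dnajb9, a co-chaperone of the lumen, at 1789, 1325 and 1043 units on the CEBPE arrays, against 3235, 3936 and 4468 units on the vector arrays (log2 -1.51, SE 0.26, adjusted p = 6.69e-04).

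Metal-responsive genes were read in zinc-treated cells on both sides. Mt1 and Mt2, the metallothioneins that bind zinc, read 123486 ± 26157 and 113951 ± 14798 units in CEBPE cells and 158151 ± 19895 and 155339 ± 17064 units in vector cells, and neither was called, although the Mt2 arrays did not overlap (adjusted p = 0.201 for Mt1 and 0.0617 for Mt2). Of 9 genes of the list 3 fell (Mt3, Slc30a1 and Slc39a6) and 0 rose (median -0.45; 0 higher and 2 lower without the arrays numbered 1). Hmox1, heme oxygenase, which metals and oxidants induce, read 14515, 12969 and 16226 units on the CEBPE arrays, against 99003, 102191 and 97965 units on the vector arrays, with a fall of 6.87-fold and little spread in either group (log2 -2.78, SE 0.18, adjusted p = 1.61e-08). Srxn1, which reactivates oxidised peroxiredoxins, fell 2.04-fold (3116 ± 467 units in CEBPE cells and 6359 ± 928 units in vector cells), while its dimmer probe set, with overlapping arrays, was not called. Some other antioxidant genes rose: of 28 tested 7 were higher, only Hmox1 and Srxn1 were lower and 19 were not called. The list median was 0.06, under the all-gene median of 0.08, and 12 of the 28 had a negative difference. Without the arrays numbered 1, 5 were higher and 2 lower. Sod3, the secreted superoxide dismutase, read 10784, 8956 and 11505 units on the CEBPE arrays, against 3323, 3162 and 3145 units on the vector arrays (3.23-fold higher, log2 1.69, SE 0.18, adjusted p = 7.49e-06). Gsr, which recycles glutathione, rose 1.66-fold and the membrane glutathione transferase Mgst1 1.64-fold. The Mt3 call was lost without CEBPE array 2 or vector array 3 (adjusted p up to 0.0666). Mt3 was also lost with no filter (adjusted p over the alternatives from 0.00448 to 0.0535). The Slc30a1 call was lost without CEBPE array 2 or vector array 1 or 3 (adjusted p up to 0.0574). Slc30a1 was also lost without the arrays numbered 1 (adjusted p over the alternatives from 0.00773 to 0.102). The Slc39a6 call was lost without CEBPE array 3 or vector array 2 (adjusted p up to 0.0737). Slc39a6 was also lost with no filter or with the fit limited to the groups compared (adjusted p over the alternatives from 0.00157 to 0.0686).

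Cholesterol synthesis was the list with the highest median. Of 16 genes tested 10 rose and 0 fell (median 0.85), with the same counts without the arrays numbered 1, and all 16 had a positive difference. Mvd, which makes isopentenyl diphosphate from mevalonate diphosphate, read 2632, 3005 and 2871 units on the CEBPE arrays, against 359, 691 and 403 units on the vector arrays, a rise of 6.10-fold (log2 2.61, SE 0.41, adjusted p = 3.47e-04). Hmgcs1, the synthase ahead of HMG-CoA reductase, read 15121, 16442 and 15144 units on the CEBPE arrays, against 5907, 6309 and 5484 units on the vector arrays (log2 1.40, SE 0.12, adjusted p = 2.54e-07). Fdps, farnesyl diphosphate synthase, read 38946, 58901 and 50892 units on the CEBPE arrays, against 17818, 23002 and 19322 units on the vector arrays (log2 1.29, SE 0.21, adjusted p = 4.06e-04). In the sterol branch the squalene epoxidase Sqle rose 2.65-fold, the cyclase Lss 3.11-fold and Nsdhl, a demethylating dehydrogenase, 3.54-fold, the last in 3 of 3 probe sets. No array of either group crossed into the other in these 6 genes. Nus1, the prenyltransferase subunit that builds dolichol from the same precursors, read 5066, 6580.4 and 5912 units on the CEBPE arrays, against 1705, 2198 and 2160.4 units on the vector arrays and rose 2.90-fold.

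Genes of fatty acid breakdown rose as well. Of 22 genes of fatty acid oxidation and the peroxisome 11 rose and 0 fell (median 0.56; 7 higher without the arrays numbered 1). Echs1, the enoyl-CoA hydratase of the mitochondrial β-oxidation spiral, read 3445, 3489 and 3638 units on the CEBPE arrays, against 228, 1245 and 668 units on the vector arrays; the 3 CEBPE arrays nearly coincided while the vector arrays spread widely (log2 2.62, SE 0.42, adjusted p = 4.35e-04). Hadhb, a subunit of the mitochondrial trifunctional protein, rose 1.71-fold. In the peroxisome Hsd17b4, its bifunctional enzyme, read 2233, 2961 and 3005 units on the CEBPE arrays, against 1239, 1574 and 1135 units on the vector arrays (log2 1.06, SE 0.21, adjusted p = 0.00233). Abcd3, a transporter of its membrane, read 2935, 3343 and 3129.8 units on the CEBPE arrays, against 1528, 1670.0 and 1841 units on the vector arrays (log2 0.90, SE 0.16, adjusted p = 8.41e-04). Fat cell genes gave 4 rises and 1 fall among 20 tested (median 0.30; 3 higher and 1 lower without the arrays numbered 1). Lpl, lipoprotein lipase, read 783, 1075 and 1218 units on the CEBPE arrays, against 223, 289 and 249 units on the vector arrays (3.99-fold higher, adjusted p = 1.08e-05). Its other probe set overlapped between groups and was not called. Dgat1, which completes triglyceride synthesis, rose 1.72-fold, the desaturase gene Scd2 1.55-fold, and Fasn, fatty acid synthase, was called higher at 12152 ± 1530.1 units in CEBPE cells and 8066 ± 797 units in vector cells. Elovl6, which elongates fatty acids and was not on the list, read 4007, 4595 and 4240.1 units on the CEBPE arrays, against 1408, 1996 and 1075 units on the vector arrays (log2 1.56, SE 0.22, adjusted p = 9.88e-05). The Lpl call was lost with the floor at the 40th percentile (adjusted p over the alternatives from 1.65e-06 to 0.0554). The Dgat1 call was lost without CEBPE array 2 or vector array 1 or 3 (adjusted p up to 0.0812). Dgat1 was also lost with no filter (adjusted p over the alternatives from 9.11e-04 to 0.0531). The Scd2 call was lost with the fit limited to the groups compared (adjusted p over the alternatives from 5.13e-05 to 0.0574). The Fasn call was lost without the arrays numbered 1 (adjusted p over the alternatives from 3.93e-04 to 0.0662).

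**Figure D3:**
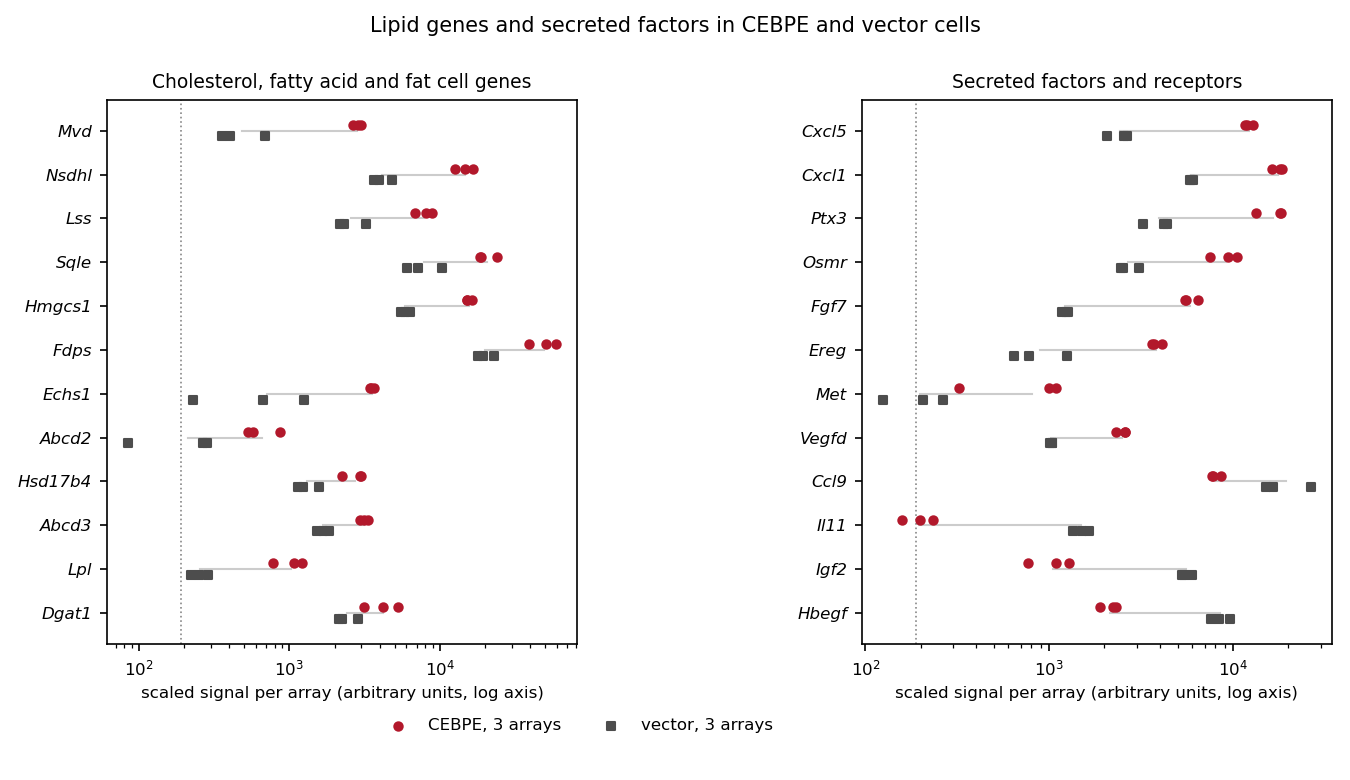
Scaled signal of each array on a log axis (arbitrary units) for 12 lipid genes (left) and 12 secreted factors or receptors (right), CEBPE arrays as red circles, vector arrays as dark squares, a line between group means and the floor dotted. All lipid genes shown and the first 8 on the right are higher on every CEBPE array, and Ccl9, Il11, Igf2 and Hbegf are lower on every one.

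Other energy genes moved less. Of 59 oxidative phosphorylation subunits 9 rose and 0 fell (median 0.21; 7 without the arrays numbered 1), which is 15.3% of them, against 9.89% of all genes. Of 18 genes of glycolysis and pyruvate use 4 rose and 1 fell (median 0.23; 4 higher and 1 lower without the arrays numbered 1). Pfkl, liver-type phosphofructokinase, read 16955, 22884 and 19354 units on the CEBPE arrays, against 7704, 8316 and 7296 units on the vector arrays (2.52-fold higher, log2 1.34, SE 0.15, adjusted p = 1.05e-05). Pdk1, which holds pyruvate back from the mitochondrion, read 8277, 10760.0 and 9764 units on the CEBPE arrays, against 3789, 5809 and 4676 units on the vector arrays (log2 1.03, SE 0.18, adjusted p = 0.00105). Neuron-type enolase, Eno2, was the 1 that fell, at 2605, 2421 and 1870.1 units on the CEBPE arrays, against 6271, 5784 and 5809.5 units on the vector arrays (log2 -1.39, SE 0.14, adjusted p = 4.93e-06). Of 16 genes of the hypoxia response 6 rose, among them the mitophagy receptor Bnip3 (2.04-fold) and the oxygen sensor Egln1 (1.70-fold), and 2 fell (median 0.13; 7 higher and 2 lower without the arrays numbered 1).

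Enzymes of other pathways were among the largest rises. Aldh3a1, an aldehyde dehydrogenase abundant in cornea, read 4896, 5339 and 5269 units on the CEBPE arrays, against 849, 815 and 1007 units on the vector arrays (5.83-fold higher, log2 2.54, SE 0.16, adjusted p = 8.20e-09). Xdh, xanthine dehydrogenase, read 7966, 10656 and 9296 units on the CEBPE arrays, against 1979.6, 2792 and 2556 units on the vector arrays (log2 1.93, SE 0.21, adjusted p = 5.90e-06). Nnmt, which methylates nicotinamide, read 2813, 4017 and 1140.2 units on the CEBPE arrays, against 445, 594 and 443 units on the vector arrays, with the third CEBPE array well under the others yet above vector (log2 2.26, SE 0.37, adjusted p = 5.28e-04). Glrx, glutaredoxin, rose 3.90-fold (7389 ± 897 units in CEBPE cells and 1903 ± 309 units in vector cells), and Abcb10, a transporter of the mitochondrial inner membrane, 4.42-fold (1302 ± 236 units in CEBPE cells and 291 ± 4.32 units in vector cells). Cyb5r1, a cytochrome b5 reductase, and Hgsnat, a lysosomal acetyltransferase, fell 4.44-fold and 4.61-fold. The second Cyb5r1 probe set was lower by far less, at log2 -0.46 (adjusted p = 0.0171). Sat1, the acetyltransferase that sends polyamines to breakdown, fell 2.36-fold (10251 ± 2908 units in CEBPE cells and 23717 ± 3276 units in vector cells). Of 16 aldehyde dehydrogenases, cytochromes P450 and related enzymes 4 rose (Aldh3a1, Nnmt, Xdh and Aldh1a7) and 1 fell, Aldh18a1 (median 0.08; 3 higher and 1 lower without the arrays numbered 1). Nnmt and Xdh belong to neither family, and the list was chosen with earlier results of these data known. Its count of rises is therefore not independent of those results. Of 5 polyamine genes Sat1 fell and Srm, spermidine synthase, rose 1.49-fold (median -0.10; 0 higher and 1 lower without the arrays numbered 1). Of 6 prostaglandin genes 1 rose, Pla2g4a, the phospholipase that frees arachidonic acid, by 1.45-fold, and 0 fell (median 0.07; 1 higher and 0 lower without the arrays numbered 1). The Aldh1a7 call was lost without CEBPE array 1, 2 or 3 or vector array 1 or 3 (adjusted p up to 0.143). Aldh1a7 was also lost with median ratio scaling, with the fit limited to the groups compared or without the arrays numbered 1 (adjusted p over the alternatives from 0.0141 to 0.365). The Srm call was lost without CEBPE array 2 or 3 or vector array 1 or 3 (adjusted p up to 0.126). Srm was also lost with no filter, with the fit limited to the groups compared or without the arrays numbered 1 (adjusted p over the alternatives from 0.00121 to 0.0885). The Pla2g4a call was lost with the fit limited to the groups compared (adjusted p over the alternatives from 4.26e-04 to 0.0583).

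Of the 10 genes that rose most 6 had a promoter in the table, all but Dcn, Aldh3a1, Cxcl5 and Nnmt, and 3 of these held a searched motif. These 3 are shown: TTGCNNAA, most of the C/EBP palindrome, in Slfn2, TGATGNAA in Echs1 and TGACNNNGC in H2-M2. Windows, strand and capitals are as for the genes that fell, at chr11:83064862-83065161 (Slfn2, plus strand), chr7:140116372-140116671 (Echs1, minus strand) and chr17:37483505-37483804 (H2-M2, minus strand).
Slfn2: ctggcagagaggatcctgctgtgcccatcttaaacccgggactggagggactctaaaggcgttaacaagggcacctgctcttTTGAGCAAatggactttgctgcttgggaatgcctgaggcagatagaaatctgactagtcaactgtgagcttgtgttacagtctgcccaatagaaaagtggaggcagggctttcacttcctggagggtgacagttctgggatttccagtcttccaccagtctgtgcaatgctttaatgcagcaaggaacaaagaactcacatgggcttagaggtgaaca
Echs1: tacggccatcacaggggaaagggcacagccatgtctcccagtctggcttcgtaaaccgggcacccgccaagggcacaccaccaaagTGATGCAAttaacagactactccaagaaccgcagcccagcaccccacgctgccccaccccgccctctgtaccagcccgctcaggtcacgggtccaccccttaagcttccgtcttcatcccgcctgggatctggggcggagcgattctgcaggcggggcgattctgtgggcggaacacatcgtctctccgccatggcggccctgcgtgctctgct
H2-M2: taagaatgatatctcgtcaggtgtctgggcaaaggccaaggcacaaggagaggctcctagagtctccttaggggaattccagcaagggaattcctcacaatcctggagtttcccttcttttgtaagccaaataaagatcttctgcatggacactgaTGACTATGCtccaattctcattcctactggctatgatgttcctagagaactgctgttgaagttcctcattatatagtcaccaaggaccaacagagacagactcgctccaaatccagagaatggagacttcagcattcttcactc
TTGCNNAA stood in 10.8% of all promoters of this length, in 12.2% of the 435 genes called higher with a promoter, in 9.80% of the 296 called lower and in 10.6% of the 4343 tested. AP-1 sites (TGANTCA) stood in 7.82%, 7.09% and 6.56% of the same 3 sets and in 7.81% of all promoters, and TGACGTCA in 2.53%, 3.38% and 3.43% and in 1.79% of all. No searched motif lay in the window of Mvd, U90926 or Fgf7. Here too the 3 of 6 genes with a motif have no share of all promoters with any searched motif beside them.

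Secreted factors moved both ways. The neutrophil chemokines Cxcl5 and Cxcl1 rose. Cxcl5 read 11961, 12827 and 11689.6 units on the CEBPE arrays, against 2667, 2552 and 2075 units on the vector arrays (5.03-fold, log2 2.33, SE 0.13, adjusted p = 4.29e-09). Cxcl1 read 17944, 16259 and 18421 units on the CEBPE arrays, against 5849.7, 6031 and 5905 units on the vector arrays (2.95-fold, log2 1.56, SE 0.14, adjusted p = 9.26e-07). Of 10 chemokines tested these 2 rose and 3 CC chemokines fell (median -0.13; 2 higher and 3 lower without the arrays numbered 1). Ccl9 averaged 8041 ± 459.5 units in CEBPE cells and 19366 ± 6161 units in vector cells, Ccl8 3531 ± 558 units in CEBPE cells and 7020.4 ± 448 units in vector cells, and Ccl25 1447 ± 572 units in CEBPE cells and 3589.7 ± 783 units in vector cells. Ptx3, a soluble pattern recognition protein, read 13388, 18357 and 17984 units on the CEBPE arrays, against 3257, 4379 and 4197 units on the vector arrays (log2 2.07, SE 0.20, adjusted p = 1.55e-06). Cd14, the co-receptor for bacterial lipopolysaccharide, read 6699, 7677 and 7563 units on the CEBPE arrays, against 3086, 2287 and 3503 units on the vector arrays (log2 1.33, SE 0.19, adjusted p = 1.11e-04). Of 9 acute phase genes 4 rose and 0 fell, with Hp, haptoglobin, 1.86-fold higher (median 0.25; 3 higher and 0 lower without the arrays numbered 1). Of 14 granulocyte and myeloid genes tested 3 rose, among them Camp and S100a8 at log2 1.07 and 1.08, and 1 fell, the macrophage glycoprotein Cd68 (1121 ± 43.1 units in CEBPE cells and 3103 ± 244 units in vector cells, log2 -1.47, SE 0.15, adjusted p = 4.59e-06). The median of these 14 was -0.03, and 1 was higher and 1 lower without the arrays numbered 1. The Camp call was lost without CEBPE array 1, 2 or 3 or vector array 1 or 2 (adjusted p up to 0.144). Camp was also lost with array weights, with median ratio scaling, with no filter, with the fit limited to the groups compared or without the arrays numbered 1 (adjusted p over the alternatives from 0.0168 to 0.0901). The S100a8 call was lost without CEBPE array 1 or vector array 3 (adjusted p up to 0.0637). S100a8 was also lost with the fit limited to the groups compared or without the arrays numbered 1 (adjusted p over the alternatives from 0.00620 to 0.0961).

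The interleukin-6 family signals through a shared receptor chain, JAK kinases and Stat3, and its list gave more rises than falls. Of 16 tested 9 rose and 1 fell (median 0.54; 3 higher and 1 lower without the arrays numbered 1). Osmr, the oncostatin M receptor, read 7481, 10464 and 9374 units on the CEBPE arrays, against 2512, 3064 and 2467 units on the vector arrays, with no overlap (3.38-fold, log2 1.76, SE 0.16, adjusted p = 8.56e-07). Il11, a ligand that signals through the same shared receptor chain, read 234, 198 and 157 units on the CEBPE arrays, against 1343, 1511 and 1642 units on the vector arrays, with 1 CEBPE array under the floor, and fell 7.24-fold (log2 -2.86, SE 0.53, adjusted p = 0.00132). Il11 passed the signal filter through the vector arrays alone. Its p-value and its place as the 1 fall of the list are therefore not independent of its high vector signal.

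Growth factors were split between 4 rises and 7 falls among 21 tested (median 0.07; 3 higher and 5 lower without the arrays numbered 1). Fgf7, the keratinocyte growth factor, read 5559, 6489.8 and 5503 units on the CEBPE arrays, against 1175, 1263 and 1242 units on the vector arrays (4.76-fold, log2 2.25, SE 0.15, adjusted p = 2.82e-08). Ereg, the EGF receptor ligand epiregulin, read 3614, 4088 and 3700.0 units on the CEBPE arrays, against 779.7, 1243 and 640.4 units on the vector arrays (4.45-fold, log2 2.15, SE 0.22, adjusted p = 3.18e-06). Vegfd, a growth factor of lymph vessels, read 2307, 2595 and 2601 units on the CEBPE arrays, against 1009, 1031 and 1030.4 units on the vector arrays (log2 1.29, SE 0.22, adjusted p = 7.53e-04). Hbegf, another EGF receptor ligand, went the other way at 2234, 2319.9 and 1902 units on the CEBPE arrays, against 8345, 9692 and 7571 units on the vector arrays (3.96-fold lower, log2 -1.99, SE 0.15, adjusted p = 1.07e-07). Igf2, insulin-like growth factor 2, read 764, 1287 and 1088 units on the CEBPE arrays, against 5311, 5959 and 5441 units on the vector arrays (5.44-fold lower, log2 -2.44, SE 0.19, adjusted p = 1.09e-07), with no overlap. The fibroblast growth factor receptor Fgfr3, not on the list, read 445, 191 and 241 units on the CEBPE arrays, against 1214, 1068 and 1080.2 units on the vector arrays (log2 -2.03, SE 0.33, adjusted p = 4.72e-04). Igfbp4, which binds insulin-like growth factors, read 4923, 3459 and 2349.6 units on the CEBPE arrays, against 1564, 302 and 1318 units on the vector arrays, with wide spread in both groups (4.01-fold higher, adjusted p = 0.0138). Its dimmer probe set was not called. Igfbp4 was the 1 called of 6 binding proteins of these factors (median -0.36; 1 higher and 0 lower without the arrays numbered 1). The Igfbp4 call was lost without CEBPE array 1 (adjusted p up to 0.0508). Igfbp4 was also lost with no filter (adjusted p over the alternatives from 0.00195 to 0.0736).

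Immune genes gave calls in both directions. Slfn2, a Schlafen gene of quiescent lymphocytes, read 1350.1, 2753 and 2036 units on the CEBPE arrays, against 151, 197 and 251 units on the vector arrays, with 1 vector array under the floor (log2 3.22, SE 0.41, adjusted p = 4.71e-05), and its other probe set rose as well. H2-M2, a nonclassical MHC class I gene, read 1599.8, 1309 and 1721 units on the CEBPE arrays, against 242, 299.7 and 227 units on the vector arrays (6.03-fold, log2 2.59, SE 0.37, adjusted p = 1.25e-04). Among 19 genes of MHC class I and antigen presentation 3 rose and 1 fell, the light chain gene B2m (27552 ± 4173 units in CEBPE cells and 44212 ± 6513 units in vector cells, log2 -0.68, SE 0.15, adjusted p = 0.00392). The antigen presentation list had a median of -0.18, with the same counts without the arrays numbered 1. Among 14 interferon-induced genes 2 rose, Slfn2 and Ifi204 (2.52-fold), and 1 fell, the ubiquitin-like Isg15, at 214, 207 and 285 units on the CEBPE arrays, against 957, 1283 and 1148 units on the vector arrays (4.81-fold lower, log2 -2.27, SE 0.45, adjusted p = 0.00251). The interferon list had a median of 0.05, also with the same counts without those arrays. The adhesion receptor Vcam1 rose 2.30-fold in its brightest probe set (6284 ± 545 units in CEBPE cells and 2734 ± 314 units in vector cells), while its other 2, with overlapping arrays, were not called.

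Matrix genes gave more rises than falls. Dcn, the collagen-binding proteoglycan decorin, read 23176, 36280.2 and 30856 units on the CEBPE arrays, against 2750.2, 3582 and 2823 units on the vector arrays, a rise of 9.77-fold (log2 3.29, SE 0.17, adjusted p = 1.66e-09). Its log2 difference was the highest of the tested genes after the floor; before the floor, which touches no Dcn array, Slfn2 stood above it at 3.33. Vcan, the large proteoglycan versican, read 4657, 6831 and 6029 units on the CEBPE arrays, against 1437, 2108 and 2636 units on the vector arrays (log2 1.53, SE 0.20, adjusted p = 6.67e-05). Thbs2, thrombospondin 2, read 3500.0, 4268 and 3637 units on the CEBPE arrays, against 2213, 1677 and 1634 units on the vector arrays (log2 1.05, SE 0.19, adjusted p = 0.00112). Of 30 proteoglycans and other matrix proteins 5 rose and 1 fell, the microfibril gene Mfap5 (2199.6 ± 166 units in CEBPE cells and 4246 ± 529.9 units in vector cells; median 0.16; 5 higher and 2 lower without the arrays numbered 1). Of 24 collagens and their modifying enzymes 5 rose and 1 fell (median 0.04; 2 higher and 1 lower without the arrays numbered 1). Col3a1, a fibrillar collagen, averaged 2279 ± 405 units in CEBPE cells and 1040.0 ± 196 units in vector cells (log2 1.13, SE 0.21, adjusted p = 0.00116), while its other probe set, at log2 0.74, was not called (adjusted p = 0.105). Lox, which cross-links collagen, averaged 19126 ± 4310.2 units in CEBPE cells and 9558 ± 1315 units in vector cells (log2 0.98, SE 0.18, adjusted p = 0.00111). The fall was P4ha2, a prolyl hydroxylase subunit, at log2 -0.62, with its other probe set not called. The collagen median lay under that of all genes.

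Several contractile genes of the smooth muscle type fell. Acta2, smooth muscle actin, read 883, 1317 and 1002 units on the CEBPE arrays, against 2892, 3201 and 2448 units on the vector arrays (log2 -1.43, SE 0.19, adjusted p = 7.28e-05). Tagln, transgelin, read 946, 919 and 682 units on the CEBPE arrays, against 2179, 2126 and 2067 units on the vector arrays (log2 -1.34, SE 0.33, adjusted p = 0.0108). Fhl2, a LIM protein of focal adhesions, read 5984, 6802 and 5938 units on the CEBPE arrays, against 17266, 20905 and 16514 units on the vector arrays (log2 -1.54, SE 0.12, adjusted p = 1.09e-07), and Csrp1 fell 1.81-fold. Of 24 contractile and focal adhesion genes these 4 fell and 1 rose, the myosin light chain kinase gene Mylk (median -0.18; 1 higher and 3 lower without the arrays numbered 1). Of the plasminogen system Plaur and Plat fell. Plaur, the urokinase receptor, read 3435, 3007 and 2529 units on the CEBPE arrays, against 10448, 14121 and 11694 units on the vector arrays (4.04-fold lower, log2 -2.02, SE 0.15, adjusted p = 7.22e-08). Plat, tissue plasminogen activator, read 2234, 4330.1 and 3937 units on the CEBPE arrays, against 10121, 11213 and 10898 units on the vector arrays (log2 -1.67, SE 0.21, adjusted p = 4.00e-05). These were the 2 called of 12 matrix proteases and inhibitors (median -0.22; 0 higher and 2 lower without the arrays numbered 1). Procr, the receptor of protein C, read 2467, 3056 and 2893 units on the CEBPE arrays, against 16871, 19999.7 and 17774 units on the vector arrays (6.50-fold lower, log2 -2.70, SE 0.12, adjusted p = 2.42e-10). Vwf, von Willebrand factor, was at least 12.2-fold lower, at 112, 140 and 134 units on the CEBPE arrays, all under the floor, against 1958, 2686 and 2363 units on the vector arrays (adjusted p = 2.50e-05). The Tagln call was lost without the arrays numbered 1 (adjusted p over the alternatives from 5.36e-04 to 0.0561). The Mylk call was lost without CEBPE array 3 (adjusted p up to 0.0697).

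**Figure D4:**
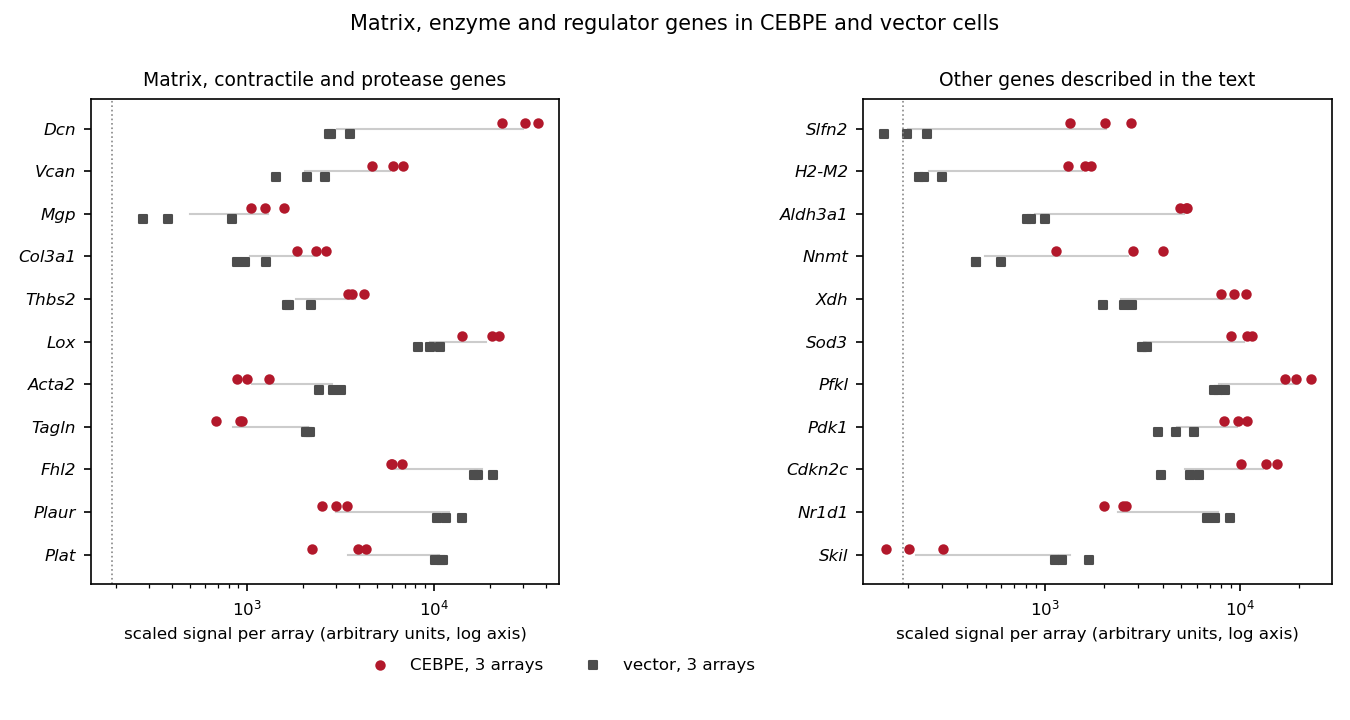
Scaled signal of each array on a log axis (arbitrary units) for 11 matrix, contractile and protease genes (left) and 11 enzymes and regulators (right), CEBPE arrays as red circles, vector arrays as dark squares, a line between group means and the floor dotted. Dcn, Vcan, Mgp, Col3a1, Thbs2 and Lox are higher on every CEBPE array, and Acta2, Tagln, Fhl2, Plaur and Plat lower on every one.

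Targets and mediators of TGF-β and BMP signalling were lower in part. Of 18 tested 6 fell and 1 rose (median -0.05; 5 lower and 1 higher without the arrays numbered 1). The Id proteins block helix-loop-helix factors. Id3 averaged 1755 ± 416 units in CEBPE cells and 4731 ± 384 units in vector cells (log2 -1.45, SE 0.21, adjusted p = 1.45e-04). Id2 averaged 1941 ± 383 units in CEBPE cells and 4257 ± 931 units in vector cells (log2 -1.13, SE 0.19, adjusted p = 6.16e-04). Id1 averaged 4638 ± 194 units in CEBPE cells and 7319.7 ± 681 units in vector cells (log2 -0.66, SE 0.12, adjusted p = 0.00132). Skil, the Smad repressor SnoN, read 301, 203 and 154 units on the CEBPE arrays, against 1688, 1219 and 1123 units on the vector arrays, with 1 CEBPE array under the floor (log2 -2.55, SE 0.57, adjusted p = 0.00567). Smad1, which carries BMP signals, fell 1.80-fold, in both probe sets. The 1 rise was the BMP receptor gene Bmpr1a (1562 ± 569 units in CEBPE cells and 641 ± 202 units in vector cells, log2 1.27, SE 0.30, adjusted p = 0.00745). The Skil call was lost without the arrays numbered 1 (adjusted p over the alternatives from 0.00203 to 0.0561). The Bmpr1a call was lost with the fit limited to the groups compared (adjusted p over the alternatives from 0.00455 to 0.0535).

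Among nuclear regulators, the clock repressors Nr1d1 and Nr1d2 fell. Nr1d1, known as Rev-erbα, read 2010.2, 2516 and 2618 units on the CEBPE arrays, against 7432, 8890.4 and 6721 units on the vector arrays (3.23-fold lower, log2 -1.69, SE 0.15, adjusted p = 5.13e-07). Of 13 clock genes 2 fell and 1 rose (median -0.03; 0 higher and 1 lower without the arrays numbered 1). The orphan receptor gene Nr2f1 rose 1.74-fold (3702 ± 321 units in CEBPE cells and 2133 ± 318 units in vector cells, log2 0.80, SE 0.16, adjusted p = 0.00198), the 1 rise among 16 nuclear receptors, of which 4 fell (median -0.00; 1 higher and 2 lower without the arrays numbered 1). Of 9 Krüppel-like factors 3 fell and 0 rose (median -0.57; 0 higher and 3 lower without the arrays numbered 1). Of 24 lysosomal genes 7 fell and 0 rose (median -0.16), but 2 were lower without the arrays numbered 1. Grn, progranulin, fell 1.76-fold (7034 ± 969.8 units in CEBPE cells and 12312 ± 1237 units in vector cells, log2 -0.81, SE 0.14, adjusted p = 9.91e-04). Its far dimmer probe set, with overlapping arrays, was not called. The Nr1d2 call was lost without CEBPE array 3 or vector array 1 (adjusted p up to 0.0659). Nr1d2 was also lost without the arrays numbered 1 (adjusted p over the alternatives from 0.00357 to 0.0872).

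Genes of DNA replication and mitosis gave few calls. Of 14 G1 regulators Ccnd2 (cyclin D2, 1492 ± 159 units in CEBPE cells and 2529 ± 227 units in vector cells) and Cdkn1a fell, and 1 rose. Cdkn2c, the CDK4 and CDK6 inhibitor p18, read 10128, 15450.0 and 13479 units on the CEBPE arrays, against 3928, 6122 and 5497 units on the vector arrays (2.52-fold, log2 1.33, SE 0.21, adjusted p = 3.56e-04). The G1 list had a median of 0.14, with the same counts without the arrays numbered 1. Of 39 DNA replication genes 2 rose and 1 fell (median 0.02; 1 higher and 0 lower without the arrays numbered 1), and of 36 mitosis genes 2 rose and 0 fell (median 0.28; 0 higher and 0 lower without the arrays numbered 1). Of 24 cytosolic ribosomal proteins 0 were called in either direction (median -0.16; 0 higher and 0 lower without the arrays numbered 1). Rplp0 averaged 142311 ± 24048 units in CEBPE cells and 158073 ± 20199 units in vector cells, and Rpl41 162314 ± 25268 units in CEBPE cells and 178551 ± 21327 units in vector cells. Of 33 proteasome subunits 2 rose and 0 fell (median 0.08; 2 higher and 0 lower without the arrays numbered 1). Of 29 genes of ribosome biogenesis 2 rose and 0 fell (median 0.07; 0 higher and 0 lower without the arrays numbered 1). Splicing factors gave more rises than falls, with 9 rises and 1 fall among 38 (median 0.21; 5 higher and 2 lower without the arrays numbered 1). Srsf5, an SR protein, rose 1.63-fold (8407 ± 734 units in CEBPE cells and 5159.7 ± 428 units in vector cells). Hnrnpk, an RNA-binding protein of the nucleus, rose 1.72-fold (6448 ± 954 units in CEBPE cells and 3761 ± 664 units in vector cells). The 1 fall was Srsf11 (9835 ± 775 units in CEBPE cells and 15291 ± 2259 units in vector cells). The Srsf11 call was lost without CEBPE array 3 or vector array 2 (adjusted p up to 0.0597).

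Genes among the 30 largest rises and falls outside these groups added cell surface and signalling proteins. Among the rises, Fam20c, a kinase of secreted proteins, read 1052, 2439 and 2652 units on the CEBPE arrays, against 376, 341 and 566 units on the vector arrays (log2 2.18, SE 0.41, adjusted p = 0.00146). Apbb1ip, a Rap1 effector, read 13349, 20400.5 and 19280.1 units on the CEBPE arrays, against 3736, 5773 and 4670.0 units on the vector arrays (log2 1.90, SE 0.18, adjusted p = 1.23e-06). Pcdh7, a protocadherin, read 3435, 3075 and 3147 units on the CEBPE arrays, against 1008, 1211 and 874 units on the vector arrays (log2 1.65, SE 0.15, adjusted p = 8.00e-07). Cavin2, a coat protein of caveolae, rose 3.00-fold. Among the falls, Wwc1, the Hippo pathway scaffold KIBRA, read 755, 1028 and 1007 units on the CEBPE arrays, against 6377, 6431 and 5597 units on the vector arrays (6.65-fold lower, log2 -2.73, SE 0.19, adjusted p = 3.26e-08), in both probe sets. Sh3gl3, an endophilin, read 815, 1322 and 1108 units on the CEBPE arrays, against 5904, 6894 and 5457 units on the vector arrays (5.71-fold lower, log2 -2.51, SE 0.19, adjusted p = 1.07e-07). Fam117a read 343, 147 and 288 units on the CEBPE arrays, against 2763, 2114 and 2314 units on the vector arrays, with 1 CEBPE array under the floor (log2 -3.17, SE 0.35, adjusted p = 8.26e-06). Fam20c, Apbb1ip, Pcdh7, Wwc1, Sh3gl3 and Fam117a did not overlap between the groups. Other sets gave these calls. Of 20 genes of the tricarboxylic acid cycle 3 rose and 0 fell (median 0.27; 1 higher and 0 lower without the arrays numbered 1). Of 8 genes of the pentose phosphate pathway and NADPH 3 rose and 0 fell (median 0.34; 2 higher and 0 lower without the arrays numbered 1). Of 33 translation factors 3 rose and 0 fell (median 0.14; 1 higher and 0 lower without the arrays numbered 1). Of 10 integrins 1 rose and 2 fell (median -0.22; 0 higher and 0 lower without the arrays numbered 1). Of 13 NF-κB targets 3 rose and 2 fell (median -0.04; 2 higher and 1 lower without the arrays numbered 1). Among 4 preadipocyte inhibitors 0 were called (median -0.13; 0 higher and 0 lower without the arrays numbered 1). Among 10 tubulins 1 fell and 0 rose (median 0.01; 1 higher and 0 lower without the arrays numbered 1). Among 17 semaphorins, ephrins and netrins 2 rose and 0 fell (median 0.10; 2 higher and 0 lower without the arrays numbered 1). Among 16 Wnt and Notch genes 1 rose and 0 fell (median 0.09; 0 higher and 0 lower without the arrays numbered 1). Among 21 apoptosis genes 4 rose and 1 fell (median 0.14; 3 higher and 1 lower without the arrays numbered 1), the fall being Bcl2l11. Bcl2l11, the killer protein Bim, averaged 1869 ± 403 units in CEBPE cells and 3531 ± 764 units in vector cells (log2 -0.92, SE 0.19, adjusted p = 0.00316). Its other probe set overlapped and was not called. Tfrc, the transferrin receptor, rose 1.76-fold (13924 ± 1604 units in CEBPE cells and 7976 ± 1568 units in vector cells, log2 0.82, SE 0.15, adjusted p = 0.00101), also in its other probe set, 1 of 2 called of 5 iron genes (median 0.15; 1 higher and 0 lower without the arrays numbered 1).

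CEBPE was then set against the other C/EBP groups. The vector arrays are not part of these differences, but the same fit over all 5 groups gave the spread, the trend and the filter behind the p-values. Against CEBPA 91 probe sets differed (1.31%), against CEBPB 163 (2.34%) and against CEBPD 572 (8.21%). With the fit limited to the groups compared, 72 differed from CEBPB. Against the mean of the 3 groups 200 differed (2.87%), 86 higher (1.24%) and 114 lower (1.64%). Of 5338 genes, 13 were higher in CEBPE than in each of the 3 other groups (0.244%) and 4 were lower (0.0749%), each at an adjusted p under 0.05 in all 3 contrasts. Of the 13, the 10 furthest from their nearest group are named. The differences from vector of the 4 C/EBP groups share the vector arrays and are therefore only set side by side.

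Heat shock and cholesterol genes held calls against CEBPD and, for the heat shock list, against CEBPB. Of the 21 heat shock genes 14 were lower in CEBPE than in CEBPD, 6 lower than in CEBPB and 0 lower than in CEBPA, with 0 higher in any. These counts stand beside 4.38%, 1.31% and 0.712% of all genes that were lower in CEBPE than in CEBPD, CEBPB and CEBPA. Of the 16 cholesterol genes 10 were higher in CEBPE than in CEBPD, against 4.07% of all genes. None of the 16 differed from CEBPA or CEBPB past the threshold, where 0.618% and 1.09% of all genes were higher. The heat shock medians against vector were -1.10 in CEBPE, -0.98 in CEBPA, -0.75 in CEBPB and -0.22 in CEBPD, and the cholesterol medians 0.85, 0.65, 0.72 and 0.21.

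Several of the 13 genes that were highest in CEBPE were also high against vector. U90926, a transcript of unsettled function, averaged 22376 ± 2415 in CEBPE, 6755 ± 599 in CEBPA, 3319 ± 174 in CEBPB, 3749 ± 246 in CEBPD and 2956 ± 220.0 in vector cells (SD, n = 3 each). Dcn averaged 30104 ± 6585 in CEBPE, 11995 ± 1836 in CEBPA, 9396 ± 802 in CEBPB, 5261 ± 542 in CEBPD and 3052 ± 461 in vector cells. Aldh3a1 averaged 5168 ± 238 in CEBPE, 1754 ± 208 in CEBPA, 1419 ± 197 in CEBPB, 2307 ± 62.5 in CEBPD and 890.3 ± 103 in vector cells. Each had all 3 CEBPE arrays above all arrays of the other groups, and their log2 differences from the mean of the other C/EBPs were 2.35, 1.82 and 1.53 (adjusted p = 3.98e-10, 3.61e-07 and 1.10e-06). Fam107b, whose protein is little studied, averaged 11930.3 ± 1285 in CEBPE, 4053 ± 298 in CEBPA, 3548 ± 312 in CEBPB, 4377 ± 475 in CEBPD and 4264 ± 510.0 in vector cells. Its CEBPE level stood apart from 4 groups that lay close together (log2 1.58 from the mean of the other C/EBPs). Dhrs1, a short-chain dehydrogenase, averaged 10038 ± 95.2 in CEBPE, 5658 ± 567 in CEBPA, 4914 ± 102 in CEBPB, 5629 ± 763 in CEBPD and 5309 ± 489.6 in vector cells. Sod3, Cd14, Cavin2, Phldb2 and the kinase gene Abl1 were higher by 1.15, 0.96, 0.84, 0.80 and 0.79 on the log2 scale.

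The 4 genes that were lower than in each other C/EBP group were Igf2, Rgs2, Gadd45b and Fgfr3. Igf2 averaged 1046 ± 264 in CEBPE, 3636 ± 406 in CEBPA, 5515 ± 595 in CEBPB, 5161 ± 1097 in CEBPD and 5570.3 ± 343 in vector cells, so that CEBPA lay between CEBPE and the others. Gadd45b averaged 1054 ± 113 in CEBPE, 2722 ± 1233 in CEBPA, 7295 ± 953 in CEBPB, 16444 ± 2267 in CEBPD and 15935 ± 1453 in vector cells, with the CEBPD mean close to that of vector. Rgs2 averaged 952 ± 231 in CEBPE, 4269 ± 684 in CEBPA, 1769.7 ± 116 in CEBPB, 7032 ± 348 in CEBPD and 4517 ± 87.4 in vector cells, with CEBPB nearest to CEBPE (log2 -0.92, adjusted p = 0.00531) and a CEBPD mean above that of vector. Fgfr3 averaged 292 ± 135 in CEBPE, 1025 ± 285 in CEBPA, 1314 ± 203 in CEBPB, 1346 ± 238 in CEBPD and 1121 ± 80.9 in vector cells. Of the 14 genes named here, Aldh3a1, Dcn, Dhrs1, Fam107b, Igf2 and U90926 passed against each of the 3 groups under every alternative and without any 1 array of the 2 groups compared. The other 8 lost at least 1 of their 3 calls. Against CEBPA the Abl1 call was lost without CEBPE array 2 or 3 or CEBPA array 1 or 2 (adjusted p up to 0.167). Against CEBPA, Abl1 was also lost with no filter, with no trend, with the fit limited to the groups compared or without the arrays numbered 1 (adjusted p over the alternatives from 0.00636 to 0.0879). Against CEBPB the Abl1 call was lost without CEBPE array 2 or 3 or CEBPB array 1, 2 or 3 (adjusted p up to 0.167). Against CEBPB, Abl1 was also lost with no filter, with no trend, with the fit limited to the groups compared or without the arrays numbered 1 (adjusted p over the alternatives from 0.00196 to 0.141). Against CEBPA the Cavin2 call was lost without CEBPE array 1 or CEBPA array 2 or 3 (adjusted p up to 0.0937). Against CEBPA, Cavin2 was also lost with no filter or with the fit limited to the groups compared (adjusted p over the alternatives from 0.00808 to 0.0584). Against CEBPB the Cavin2 call was lost without CEBPE array 1 or CEBPB array 1 or 2 (adjusted p up to 0.0589). Against CEBPB, Cavin2 was also lost with no filter or without the arrays numbered 1 (adjusted p over the alternatives from 0.00224 to 0.104). Against CEBPD the Cavin2 call was lost without the arrays numbered 1 (adjusted p over the alternatives from 5.12e-04 to 0.0509). Against CEBPA the Cd14 call was lost without CEBPE array 2 or 3 or CEBPA array 2 or 3 (adjusted p up to 0.128). Against CEBPA, Cd14 was also lost with no filter, with no scaling, with quantile normalization or without the arrays numbered 1 (adjusted p over the alternatives from 0.00769 to 0.0823). Against CEBPB the Cd14 call was lost without CEBPE array 2 or 3 or CEBPB array 1, 2 or 3 (adjusted p up to 0.101). Against CEBPB, Cd14 was also lost with no filter, with no scaling, with quantile normalization or without the arrays numbered 1 (adjusted p over the alternatives from 0.00166 to 0.105). Against CEBPA the Fgfr3 call was lost with the floor at the 40th percentile or with the fit limited to the groups compared (adjusted p over the alternatives from 0.00192 to 0.348). Against CEBPB the Fgfr3 call was lost with the fit limited to the groups compared (adjusted p over the alternatives from 4.27e-05 to 0.0539). Against CEBPA the Gadd45b call was lost with no filter, with the fit limited to the groups compared or without the arrays numbered 1 (adjusted p over the alternatives from 0.00362 to 0.0880). Against CEBPA the Phldb2 call was lost without CEBPE array 2 or 3 or CEBPA array 2 or 3 (adjusted p up to 0.182). Against CEBPA, Phldb2 was also lost with no filter, with no trend or with the fit limited to the groups compared (adjusted p over the alternatives from 0.0102 to 0.121). Against CEBPB the Phldb2 call was lost with the fit limited to the groups compared (adjusted p over the alternatives from 2.10e-04 to 0.0523). Against CEBPD the Phldb2 call was lost without CEBPE array 2 or 3 or CEBPD array 1 or 3 (adjusted p up to 0.108). Against CEBPD, Phldb2 was also lost with no filter or with the fit limited to the groups compared (adjusted p over the alternatives from 0.00165 to 0.0651). Against CEBPB the Rgs2 call was lost with the fit limited to the groups compared or without the arrays numbered 1 (adjusted p over the alternatives from 5.79e-04 to 0.161). Against CEBPA the Sod3 call was lost without CEBPE array 3 or CEBPA array 2 or 3 (adjusted p up to 0.0807). Against CEBPA, Sod3 was also lost with no filter or without the arrays numbered 1 (adjusted p over the alternatives from 0.00359 to 0.118).

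**Figure D5:**
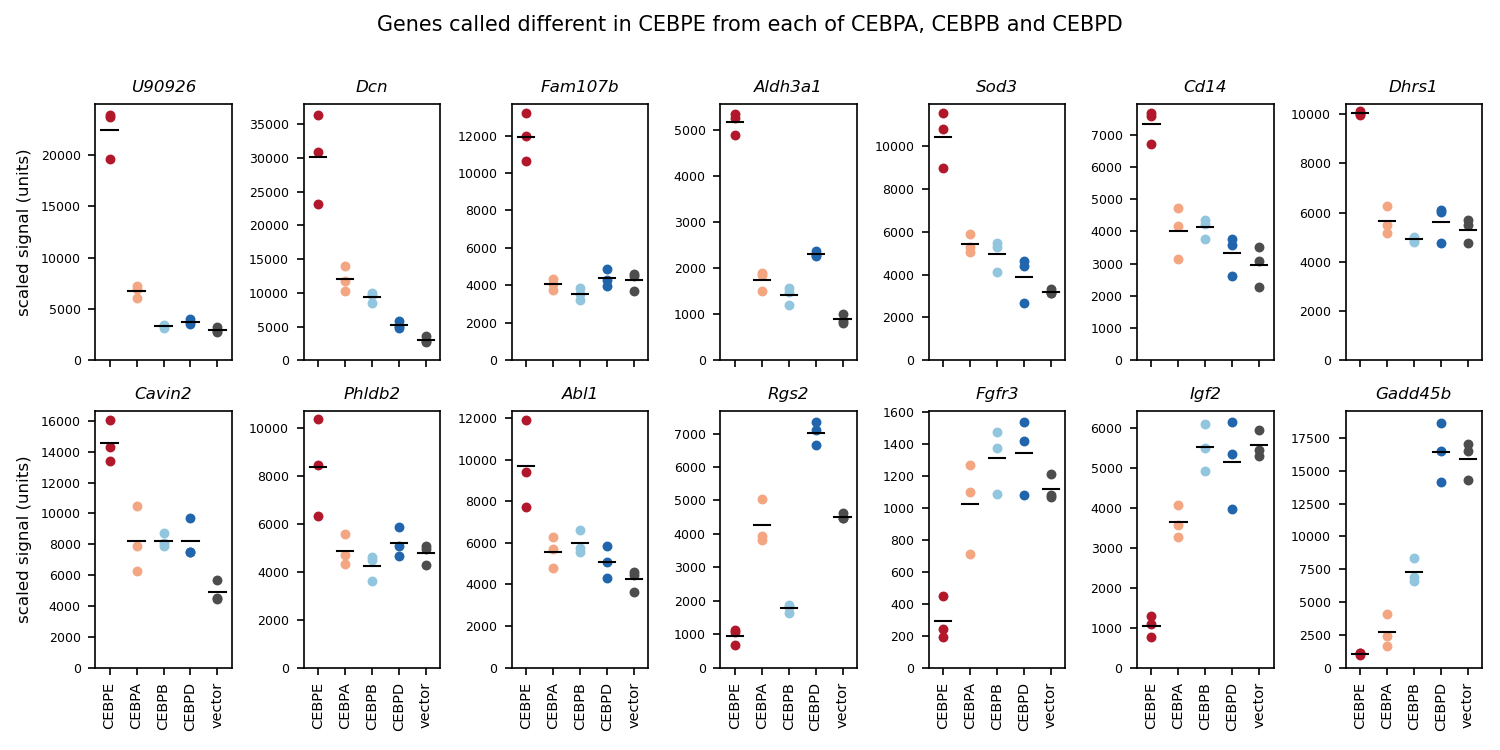
Scaled signal of each array (arbitrary units, linear axes from 0, 1 panel per gene) in the 5 groups for the 14 named genes called different in CEBPE from each other C/EBP group, with a bar at each group mean. CEBPE points stand above all others in 10 genes and below all others in Rgs2, Fgfr3, Igf2 and Gadd45b.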

How the data were processed

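Total RNA of NIH 3T3 cultures was hybridised to 15 one-colour Affymetrix MG_74Av2 arrays, 3 per group, and groups were read from the sample titles. The deposited values are linear intensity values, 1 per probe set, made by the authors in Affymetrix Microarray Suite 5.0, per the labels' protocols. The genome build is not given in the sources used here, and 3 arrays per group limit the precision.

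Arrays were brought to 1 common median, the mean over the 15 arrays of the median of 12422 non-control probe sets. Signals under the pooled 20th percentile (189.652 units) were set to it, log2 was taken, and the 6963 probe sets (56.0538%) above the pooled median (1092.06 units) on at least 3 arrays were tested. A probe set above it only on the 3 arrays of 1 group can pass, so its test is not independent of that difference. One limma 3.58.1 fit (R 4.3.3, eBayes with a trend, 10 residual degrees of freedom) over the 5 groups gave two-sided p-values, adjusted by Benjamini-Hochberg over all probe sets tested, with a threshold of 0.05. Per-array values and means ± SD (n = 3) are printed before the floor. Of the probe sets, 10833 name 1 gene, 396 several and 1193 none in the platform annotation, and where several tested probe sets named only that gene, the brightest stood for it.

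The members and gene lists were chosen with earlier results of these data known, and the tRNA synthetase list was completed after the values were available. Named were the C/EBP family, the 30 largest called rises and falls with groups that do not overlap, up to 6 called members per list (the 2 brightest where under 2 were called), and the genes that differed most from the other C/EBP groups; Mt1, Mt2, Dusp6, Farsb, Sesn1 and Srsf11 were named after their values were seen. In 10 simulated data sets of 6963 probe sets, 200 were changed in each. Means came from the vector arrays and the spread from within all 5 groups, with independent normal noise and no deviation shared between arrays. Of those changed 1.5-fold 25.6% were called, with 71.6% at 2-fold, 92% at 3-fold, 95.6% at 4-fold and 0.1153% of those not changed. In the data 16.3% were called and arrays shared deviations, so these rates need not hold there. Scaling, floor, filter, trend, array weights, a replicate block, the groups in the fit and leaving out each array were tried as alternatives, and a fit with no array numbered 1 was tried once the data had been seen. Promoters are from RefSeq (GRCm38.p6). Tables and plots were made in Python 3.11.15 with pandas 2.3.3 and matplotlib 3.10.9.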

Additional observations from a re-analysis of the deposited data

Results flagged for a closer look

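Genes that differed in CEBPE cells from each of the other C/EBP groups, each at an adjusted p under 0.05 by limma in all 3 contrasts, are listed by their log2 difference, CEBPE minus the mean of CEBPA, CEBPB and CEBPD. The difference was 2.35 for U90926, 1.82 for Dcn, 1.58 for Fam107b, 1.53 for Aldh3a1, 1.15 for Sod3 and 0.96 for Cd14. It was 0.90 for Dhrs1, 0.84 for Cavin2, 0.80 for Phldb2 and 0.79 for Abl1. On the lower side it was -2.68 for Gadd45b, -2.19 for Igf2, -2.13 for Fgfr3 and -2.01 for Rgs2.

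Control probe sets were left out of the fit, and some of those for mouse transcripts read higher on every CEBPE array than on any vector array. The mean signal in CEBPE cells over that in vector cells was 2.01 for the 3′ and 3.86 for a middle probe set of pyruvate carboxylase, and 1.74, 2.67 and 2.01 for the 3′, middle and 5′ probe sets of the transferrin receptor. For pyruvate carboxylase the 5′ probe set gave only 1.21, and another middle one gave 1.17 with overlapping arrays. The control probe set MurFAS went the other way, at 0.53, and read lower on every CEBPE array. These differences were not tested.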

How the results depend on the processing

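The calls rest on 3 arrays per group, and the total moved with how the spread was estimated. Of 1134 probe sets called between CEBPE and vector (653 higher, 481 lower), array weights gave 1730 (1055 higher), a fit of only these 2 groups gave 690 (348 higher) and leaving out the arrays numbered 1, chosen after seeing the data, gave 693 (386 higher, 307 lower). Leaving out 1 array gave 750 to 1153 in all, 385 to 779 higher and 361 to 473 lower; the total was 750 without vector array 3, and the higher count was 386 without CEBPE array 2, 433 without vector array 1 and 385 without vector array 3. Same-numbered CEBPE and vector arrays deviated together with correlations of 0.3606, 0.3726 and 0.0411 for numbers 1, 2 and 3. CEBPE array 1 with vector array 2 gave -0.3626, and CEBPE array 2 with vector array 1 gave -0.3381. Over all pairs of the 5 groups the median same-number correlation was 0.3548, 0.2982 and 0.0537. Arrays numbered 1 and 2 thus shared deviations across groups, which the main fit left out by treating all arrays as unpaired. With the number as a replicate block 1676 probe sets were called, 993 of them higher. Against the mean of the other C/EBP groups (200 called) the counts were 739 with array weights, 303 with median ratio scaling, 346 with no scaling, 364 with quantile normalization, 459 with the replicate block, 97 without the arrays numbered 1 and 105 to 214 without 1 array (105 without CEBPE array 3). Against CEBPA (91) they were 142 with no scaling and with quantile normalization, 171 with the block, 42 without the arrays numbered 1 and 55 to 92 without 1 array (55 without CEBPE array 3, 58 without CEBPA array 3). Against CEBPB (163) they were 950 with array weights, 253 with no scaling, 72 with only these 2 groups, 284 with quantile normalization, 310 with the block, 71 without the arrays numbered 1 and 85 to 153 without 1 array (85 without CEBPE array 3, and 105, 103 and 93 without CEBPB array 1, 2 and 3). Against CEBPD (572) they were 1506 with array weights, 1037 with the block, 365 without the arrays numbered 1 and 342 to 591 without 1 array (343 without CEBPE array 3, 381 without CEBPD array 2, 342 without CEBPD array 3). The cause of these shifts was not tested. Of 235 named genes called against vector, 139 passed in every alternative and without any 1 array, and no named gene reversed in the alternatives run. Signals near the floor of 189.652 units carry little order, so folds of dim genes such as Vwf, Skil and Il11 depend on it.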
